A study of Mus musculus with 9 samples.

Results

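Immediate early genes are the genes that a cell transcribes within minutes of a stimulus, from factors already present and without new protein synthesis. The 10 described here were Fos, Fosb, Egr1, Egr2, Dusp1, Ier2, Nr4a1, Nr4a2, Zfp36 and Btg2. They were chosen by name from 19938 genes measured with a probe set naming that gene alone, and each of the 10 had exactly 1 such probe set. Their signal was followed through 3 populations of dendritic cell (DC) development sorted from mouse bone marrow, with 3 arrays per population. These were Zbtb46- CDPs (common DC progenitors without the reporter), Zbtb46+ CDPs and pre-CD8 DCs, the precursors of the CD8 lineage of classical DCs. All 3 populations carried the same allele, a GFP reporter of Zbtb46 in heterozygous form, and none received an agent. Strain, age, sex and sort gates were not given in the sources used here, nor whether replicates came from separate mice, pools or days, so p-values measure only the spread between these arrays. The study asked which expression signatures mark successive DC progenitors, and the arrays were deposited for that purpose.

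In a resting cell these genes are held ready by the factors SRF and CREB, which sit on CArG boxes and cyclic AMP response elements and are switched on by growth factor, stress and calcium signalling through MAP kinases. The transcripts are short lived, so their level follows recent signalling. Some of them encode transcription factors that pass the signal on (Fos, Fosb, Egr1, Egr2, Nr4a1, Nr4a2), and others encode brakes, such as the phosphatase Dusp1 and the RNA-binding protein Zfp36. The same genes are known to respond to tissue dissociation and cell sorting. Here marrow was spun out of the bones, red cells were lysed and the cells were sorted by flow cytometry into serum-containing medium with Flt3 ligand, and the level measured is the level after those steps.

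Values below are log2 of the deposited RMA signal, an array brightness scale on which 1 unit is a factor of 2 in signal. Differences came from limma's moderated test over 19938 genes, with a Benjamini-Hochberg adjusted p under 0.05 called. Results for the 10 genes are given for 9 arrays and again for 7 arrays, without replicate 1 of both CDP groups, because those arrays stood apart. Xist, the RNA that silences an X chromosome in female cells, had 5.59 in Zbtb46- replicate 1 and 5.30 in Zbtb46+ replicate 1, against 11.85 to 12.29 on the other 7 arrays. Eif2s3y, a gene of the Y chromosome, had 6.92 and 6.51 there and 3.63 to 3.78 elsewhere, while Ddx3y had no probe set of its own. The summed signal of 10 neutrophil genes was 5519 and 18335 on the same arrays, against 780 to 1875 on the other 7. Ngp, a neutrophil granule gene, had 10.48 and 12.36 there and from 5.39 to 8.54 elsewhere. S100a8, a calcium-binding protein of neutrophils, had 9.86 and 11.58 there and from 5.58 to 7.81 elsewhere. The arrays kept in the 7-array fit differed as well. In pre-CD8 DCs the neutrophil sum was 1731, 848 and 1875, and Ngp had 8.30, 5.78 and 8.54. The part of sex-linked or neutrophil RNA in the results below was not tested. Between the CDP groups, same-numbered arrays deviated together (residual correlations of 0.51, 0.42 and 0.36). Zbtb46+ replicate 2 and Zbtb46- replicate 3 did as well (0.38), and Zbtb46+ replicate 3 and Zbtb46- replicate 2 less so (0.15). Replicates 2 and 3 are therefore not clearly paired by number. Deviations cancel within a group, so a shift of replicate 1 in both groups by itself makes replicates 2 and 3 deviate together. A fit with the replicate number as a block within the CDP groups is quoted where it changes a call of the 10 genes. Of the other genes, only some of the calls it changes are given.

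The populations otherwise carried the markers of their labels. All 6 markers of the common DC progenitor had a mean above the table's median of 6.82 in each group. That measure therefore does not separate the populations, and the 6 went both ways. Csf1r averaged 11.22 in Zbtb46- CDPs, 10.31 in Zbtb46+ CDPs and 7.56 in pre-CD8 DCs, and Cd34 fell too (11.66, 10.56 and 8.99). In the same order Kit rose (10.47, 10.68 and 11.58), as did Clec9a (9.10, 9.41 and 11.29). Flt3, the growth factor receptor of DC progenitors, averaged 11.19, 10.70 and 11.29, and Irf8 12.52, 12.97 and 12.94. The summed signal of 10 markers of the pre-CD8 (cDC1) lineage ran from 11886 to 13256 in Zbtb46- CDPs, from 20231 to 23137 in Zbtb46+ CDPs and from 34712 to 35890 in pre-CD8 DCs. Zbtb46 itself, a transcription factor of classical DCs, had 6.27, 6.92 and 6.41 in Zbtb46- CDPs, 7.50, 7.05 and 7.18 in Zbtb46+ CDPs, and 7.60, 7.39 and 7.53 in pre-CD8 DCs. Those values did not overlap between the CDP groups. Lineage markers of B cells, T and NK cells and erythroid cells had summed signals of at most 738, 316 and 252 on any array. The 6 measured genes of monocytes and macrophages summed to 6901 to 7341 in Zbtb46- CDPs, 6397 to 6645 in Zbtb46+ CDPs and 5744 to 6525 in pre-CD8 DCs, with 6, 4 and 4 of them above the table's median. These 6 genes did not move together, and they are named here after their values were seen. F13a1, a coagulation factor of monocytes, averaged 11.95, 10.08 and 7.19 in the same order of populations. Cd14 averaged 6.95, 6.38 and 5.92, and Adgre1 6.89, 6.48 and 6.49. Ccr2 rose, at 10.85, 11.54 and 12.19. Lyz2 averaged 8.86, 8.72 and 9.93, and Fn1 9.32, 10.77 and 7.98. The part of monocyte RNA in the results below was not tested. In sorted bulk RNA, fewer cells with a transcript and less transcript per cell cannot be told apart.

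Across the 10 genes, 3 patterns were seen. Dusp1, Zfp36, Btg2 and Nr4a1 were higher in pre-CD8 DCs than in Zbtb46- CDPs with either set of arrays. Fos, Fosb, Ier2 and Egr1 were called in no comparison of the 9 arrays fitted without a block, a covariate or weights, and among the 7 arrays all 4 were lower in Zbtb46+ CDPs than in Zbtb46- CDPs. Egr2 and Nr4a2 were called in no comparison with either set. Beside these, 9 of the 10 genes in Zbtb46+ CDPs and 7 in Zbtb46- CDPs were more than 0.3 higher in replicate 1 than in the mean of the other arrays of the group.

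Fos and Fosb encode the partners of Jun proteins in the AP-1 transcription factor. Fos had 10.16, 9.39 and 9.34 in Zbtb46- CDPs, 10.50, 9.08 and 9.12 in Zbtb46+ CDPs, and 9.69, 9.60 and 9.61 in pre-CD8 DCs. Replicate 1 was the highest array of both CDP groups, and the pre-CD8 arrays lay inside the spread of each CDP group. Fosb had 10.36, 9.87 and 9.74 in Zbtb46- CDPs, 11.36, 9.35 and 9.15 in Zbtb46+ CDPs, and 10.39, 10.18 and 10.47 in pre-CD8 DCs. Here too the arrays of Zbtb46+ CDPs bracketed those of both other groups. Over 9 arrays the Zbtb46+ over Zbtb46- difference was -0.06 for Fos (SE 0.36, limma adjusted p = 0.923) and -0.03 for Fosb (SE 0.49, adjusted p = 0.972), and both were positive, 0.08 and 0.14, after quantile normalization. The 95% intervals, -0.88 to 0.75 and -1.15 to 1.08, leave room for changes of either sign, so these misses do not show that the populations were alike.

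Without replicate 1 of both CDP groups the same genes separated the populations. Fos averaged 9.10 in Zbtb46+ CDPs and 9.37 in Zbtb46- CDPs (2 arrays each), a difference of -0.26 (SE 0.07, limma adjusted p = 0.0291). Fosb averaged 9.25 in Zbtb46+ CDPs and 9.80 in Zbtb46- CDPs, a difference of -0.55 (SE 0.12, adjusted p = 0.0142). Pre-CD8 DCs stood above both: Fosb was 2.14-fold higher than in Zbtb46+ CDPs (log2 difference 1.10, SE 0.11, adjusted p = 0.000883) and 1.46-fold higher than in Zbtb46- CDPs (0.54, SE 0.11, adjusted p = 0.00928). For Fos those folds were 1.44 (adjusted p = 0.00176) and 1.20 (adjusted p = 0.0189). Leaving out replicate 1 takes away the highest array of each CDP group for both genes, which lowers the CDP means by construction. The Fos fall lost its call when any of the 4 remaining CDP arrays was left out (adjusted p of 0.0529 to 0.126), and the Fosb fall when Zbtb46- replicate 2 or 3 or Zbtb46+ replicate 3 was (0.065 to 0.0968). The higher level in pre-CD8 DCs than in Zbtb46- CDPs was no longer called for Fos without Zbtb46- replicate 2 or 3 or pre-CD8 replicate 1 (0.068 to 0.125), nor for Fosb without Zbtb46- replicate 3 (0.0992). The Fos fall was also lost in a fit of the CDP groups alone (0.0586) and after quantile normalization (-0.13, adjusted p = 0.253). With a replicate block over all 3 groups, whose numbers do not pair the pre-CD8 arrays, it was not called (0.0593), nor were the pre-CD8 over Zbtb46- differences of Fos (0.0904) and Fosb (0.0512).

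The promoters of Fos and Fosb are shown because Fosb had the largest excess on replicate 1 of Zbtb46+ CDPs and Fos on that of Zbtb46- CDPs, and because CREB is known to act on these genes. Each window runs from 250 bases before to 50 bases after the RefSeq start site in GRCm38.p6, at chr12:85473640-85473939 on the plus strand for Fos and chr7:19309996-19310295 on the minus strand for Fosb. Capitals mark TGACG, the core of the cyclic AMP response element, and in Fos also the TATA box TATAAA.
Fos: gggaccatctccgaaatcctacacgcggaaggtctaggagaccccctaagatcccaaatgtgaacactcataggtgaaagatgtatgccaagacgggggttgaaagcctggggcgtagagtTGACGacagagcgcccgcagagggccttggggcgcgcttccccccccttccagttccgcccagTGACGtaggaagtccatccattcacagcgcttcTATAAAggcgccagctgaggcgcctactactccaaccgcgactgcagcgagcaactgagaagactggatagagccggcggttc
Fosb: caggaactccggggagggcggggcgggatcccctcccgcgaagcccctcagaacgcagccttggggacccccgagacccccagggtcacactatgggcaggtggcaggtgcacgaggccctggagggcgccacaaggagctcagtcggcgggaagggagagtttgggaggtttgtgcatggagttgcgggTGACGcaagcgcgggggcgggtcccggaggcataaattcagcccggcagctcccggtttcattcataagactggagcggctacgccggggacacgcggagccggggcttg
The core began 129 and 66 bases before the Fos start site and 60 bases before that of Fosb, and the TATA box of Fos began 33 bases before it. TGACG on either strand was present in 20.8% of 32851 windows of the same length over all genes. TATAAA, searched in the printed direction alone, was present in 8.32%. A match is a description of the letters in these windows and says nothing of binding.

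**Figure D1:**
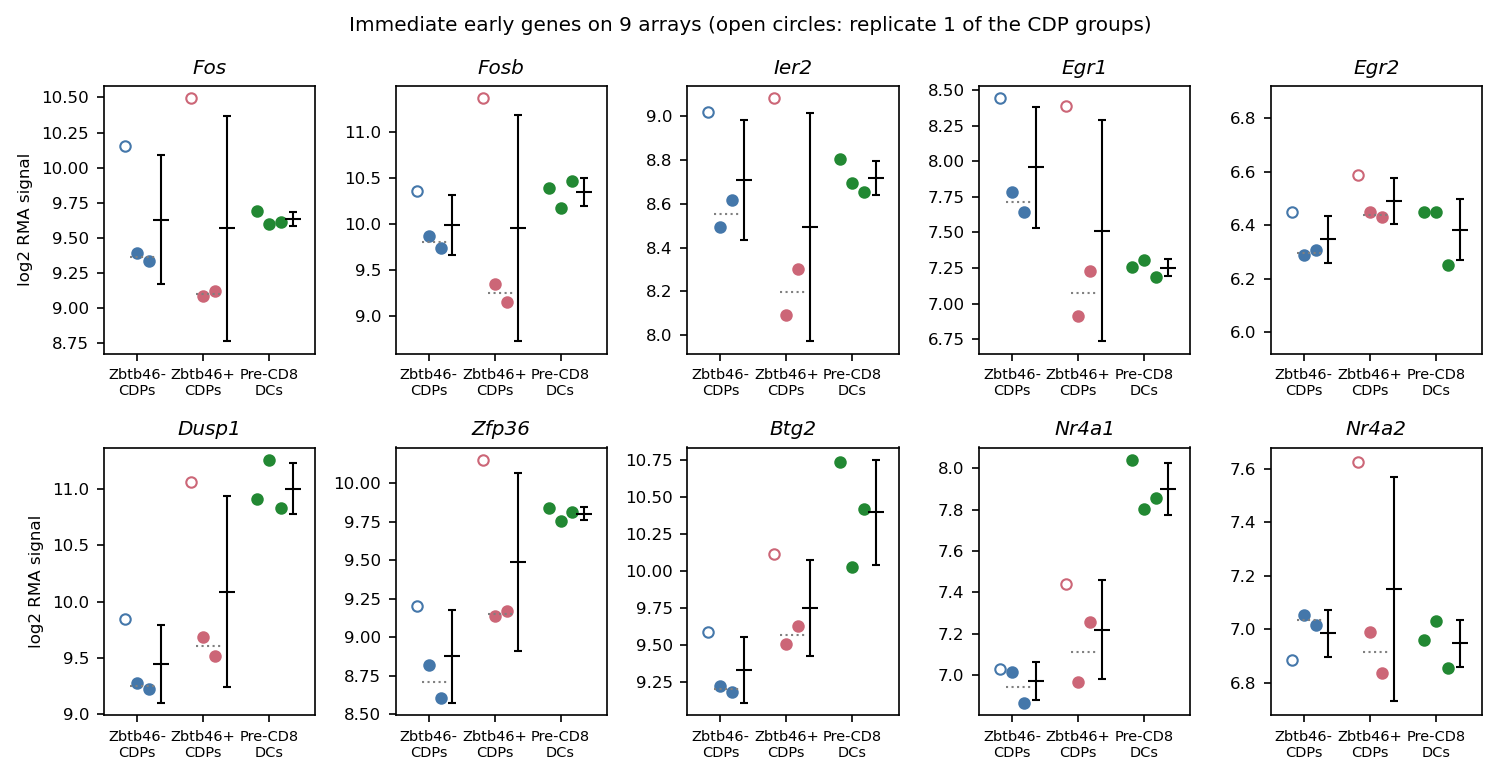
Log2 RMA signal of each of the 10 genes on 9 arrays by population, 3 arrays each. Open circles are replicate 1 of the CDP groups, dotted lines the mean of the other CDP replicates, and black bars the mean and SD of 3 arrays. In Fosb the Zbtb46+ CDPs replicate 1 lies at 11.36, above the 3 pre-CD8 DC arrays at 10.18 to 10.47, and the other Zbtb46+ arrays lie at 9.35 and 9.15.

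Ier2 encodes a short-lived nuclear protein of the early response. Its signal was 9.02, 8.49 and 8.62 in Zbtb46- CDPs, 9.08, 8.09 and 8.30 in Zbtb46+ CDPs, and 8.81, 8.69 and 8.66 in pre-CD8 DCs. All 3 groups overlapped, and no difference was called over 9 arrays (-0.22, 0.23 and 0.01, adjusted p of 0.566, 0.656 and 0.991). Over 7 arrays it was lower in Zbtb46+ than in Zbtb46- CDPs (-0.36, SE 0.10, adjusted p = 0.0361) and higher in pre-CD8 DCs than in Zbtb46+ CDPs (0.52, SE 0.09, adjusted p = 0.00772). Pre-CD8 DCs and Zbtb46- CDPs differed by 0.16 (95% interval -0.04 to 0.37, adjusted p = 0.295). The first of these calls was lost without Zbtb46- replicate 2 or 3, Zbtb46+ replicate 2, or pre-CD8 replicate 1 or 3 (adjusted p of 0.0504 to 0.207), after quantile normalization (0.143) and in a fit of the CDP groups alone (0.0905). The second was lost without Zbtb46+ replicate 2 (0.0506).

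Egr1 and Egr2 are zinc finger factors of the early growth response family, of which Egr1 is the more widely induced. Egr1 had 8.44, 7.78 and 7.65 in Zbtb46- CDPs, 8.39, 6.92 and 7.23 in Zbtb46+ CDPs, and 7.26, 7.31 and 7.19 in pre-CD8 DCs. Every pre-CD8 array was below every Zbtb46- array, while the Zbtb46+ arrays overlapped both groups. Over 9 arrays the pre-CD8 over Zbtb46- difference was -0.70 (SE 0.35, limma adjusted p = 0.267), and with the replicate block within the CDP groups it passed (adjusted p = 0.00951). It also passed without Zbtb46+ replicate 1 (adjusted p = 0.0286). Over 7 arrays Egr1 was lower by 0.64 in Zbtb46+ CDPs than in Zbtb46- CDPs (log2 difference -0.64, SE 0.11, adjusted p = 0.00705), which is 1.56-fold. In pre-CD8 DCs it was lower than in Zbtb46- CDPs (-0.46, SE 0.10, adjusted p = 0.0163). With a replicate block over all groups this pre-CD8 call was lost (-0.46, adjusted p = 0.0674). The pre-CD8 over Zbtb46+ difference was 0.18 over 7 arrays (adjusted p = 0.255) and -0.26 over 9 arrays (adjusted p = 0.732), so its sign rests on which arrays are used. Leaving out Zbtb46- replicate 2 removed the Zbtb46+ call (adjusted p = 0.059), and leaving out Zbtb46- replicate 2 or 3 or pre-CD8 replicate 1 or 3 removed the pre-CD8 call (0.0503 to 0.145).

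Egr2, known for its role in myelination and in lymphocyte tolerance, stayed between 6.25 and 6.59 on all 9 arrays. That is below the table's median of 6.82. The 3 differences over 9 arrays were 0.14, -0.11 and 0.04 with 95% intervals of -0.05 to 0.34, -0.30 to 0.09 and -0.16 to 0.23. No call was made with either set of arrays.

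Dusp1, the phosphatase that switches MAP kinases off again, gave the largest rise of the 10. Its signal was 9.85, 9.27 and 9.22 in Zbtb46- CDPs, 11.06, 9.69 and 9.52 in Zbtb46+ CDPs, and 10.91, 11.26 and 10.83 in pre-CD8 DCs. Every pre-CD8 array was above every Zbtb46- array, and of the Zbtb46+ arrays only replicate 1 reached the pre-CD8 range. Dusp1 averaged 11.00 ± 0.23 in pre-CD8 DCs and 9.45 ± 0.35 in Zbtb46- CDPs (SD, n = 3 each). That is 2.94-fold higher (log2 difference 1.56, SE 0.37, limma adjusted p = 0.0188), and over 7 arrays 3.38-fold (1.76, SE 0.13, adjusted p = 7.4e-05). The 9-array call was lost without Zbtb46- replicate 2 or 3 or any 1 of the pre-CD8 arrays (differences of 1.43 to 1.64, adjusted p of 0.052 to 0.0749). Over the step between, pre-CD8 DCs exceeded Zbtb46+ CDPs by 0.91 over 9 arrays (SE 0.37, adjusted p = 0.211, with the replicate block 0.0237) and by 1.40 over 7 arrays (SE 0.13, adjusted p = 0.000747). Zbtb46+ CDPs exceeded Zbtb46- CDPs by 0.64 over 9 arrays (adjusted p = 0.28, with the replicate block 0.0449), and by 0.35 over 7 arrays (adjusted p = 0.118, with quantile normalization 0.047 and without pre-CD8 replicate 2 0.0254).

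Zfp36 encodes tristetraprolin, which binds AU-rich elements and hastens the decay of cytokine transcripts. It had 9.20, 8.82 and 8.61 in Zbtb46- CDPs, 10.15, 9.14 and 9.17 in Zbtb46+ CDPs, and 9.84, 9.76 and 9.81 in pre-CD8 DCs. The pre-CD8 arrays agreed within 0.08 and lay above all Zbtb46- arrays. The pre-CD8 over Zbtb46- difference was 0.93 over 9 arrays (SE 0.26, limma adjusted p = 0.0399) and 1.09 over 7 arrays (SE 0.08, adjusted p = 5.9e-05). As for Dusp1, the 9-array call was lost without Zbtb46- replicate 2 or 3 or any 1 of the pre-CD8 arrays (0.79 to 0.95, adjusted p of 0.096 to 0.145). Zfp36 was the 1 gene of the 10 called higher in Zbtb46+ CDPs than in Zbtb46- CDPs over 7 arrays (0.44, SE 0.08, adjusted p = 0.00981), a call lost without Zbtb46- replicate 3 (0.0597). Over 9 arrays that difference was 0.61 (SE 0.26, adjusted p = 0.154, with the replicate block 0.00816). Over the later step it was 0.32 over 9 arrays (adjusted p = 0.563) and 0.65 over 7 arrays (SE 0.08, adjusted p = 0.00194).

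Btg2, an antiproliferative protein that recruits the deadenylase complex to transcripts, had 9.59, 9.23 and 9.18 in Zbtb46- CDPs, 10.12, 9.51 and 9.63 in Zbtb46+ CDPs, and 10.74, 10.03 and 10.42 in pre-CD8 DCs. Pre-CD8 and Zbtb46- arrays did not overlap, while the lowest pre-CD8 array was below Zbtb46+ replicate 1. It averaged 10.40 ± 0.36 in pre-CD8 DCs and 9.33 ± 0.22 in Zbtb46- CDPs (SD, n = 3 each), a 2.09-fold difference (1.06, SE 0.21, limma adjusted p = 0.00788). That call held in 9 of 9 fits that left out 1 array each, with values from 0.89 to 1.25. Pre-CD8 DCs exceeded Zbtb46+ CDPs by 0.65 over 9 arrays (SE 0.21, adjusted p = 0.12, with the replicate block 0.0498) and by 0.83 over 7 arrays (SE 0.18, adjusted p = 0.0197). The 7-array call was lost without Zbtb46- replicate 2 or 3, Zbtb46+ replicate 2 or 3 or pre-CD8 replicate 3 (adjusted p of 0.0516 to 0.134). Btg2 in Zbtb46+ CDPs was 0.42 above Zbtb46- CDPs over 9 arrays (adjusted p = 0.226) and 0.36 over 7 arrays (adjusted p = 0.237).

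Nr4a1 and Nr4a2 are orphan nuclear receptors, and Nr4a1 (Nur77) is best known as an early response to antigen receptor signalling. Nr4a1 had 7.03, 7.02 and 6.86 in Zbtb46- CDPs, 7.44, 6.96 and 7.25 in Zbtb46+ CDPs, and 8.04, 7.80 and 7.86 in pre-CD8 DCs. All pre-CD8 arrays were above all 6 CDP arrays. Replicate 1 was above the mean of its group's other arrays by 0.09 in Zbtb46- CDPs and by 0.33 in Zbtb46+ CDPs. The Zbtb46- arrays, at 6.86 to 7.03, lay close to the table's median of 6.82. Of the 10 genes, Nr4a1 was the 1 called between pre-CD8 DCs and Zbtb46+ CDPs over 9 arrays (0.68, SE 0.12, limma adjusted p = 0.0123), a call lost without pre-CD8 replicate 1 (0.61, adjusted p = 0.058). Over 7 arrays it was 0.79 (SE 0.11, adjusted p = 0.004). Against Zbtb46- CDPs it was 1.91-fold higher (0.93, SE 0.12, adjusted p = 0.000795) and, over 7 arrays, 1.95-fold (0.96, SE 0.11, adjusted p = 0.00076). This was called in 9 of 9 fits that left out 1 array each. The CDP groups differed in Nr4a1 by 0.25 over 9 arrays (adjusted p = 0.219) and 0.17 over 7 arrays (adjusted p = 0.375). Nr4a2 had 6.89, 7.05 and 7.02 in Zbtb46- CDPs, 7.63, 6.99 and 6.84 in Zbtb46+ CDPs, and 6.96, 7.03 and 6.85 in pre-CD8 DCs. Zbtb46+ replicate 1 was high by 0.71 and the other 8 arrays lay between 6.84 and 7.05, close to the table's median.

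The promoters of the 4 genes that were higher in pre-CD8 DCs than in Zbtb46- CDPs with both sets of arrays are shown to compare their response elements. The windows, of the same span and build, are chr17:26508423-26508722 on the minus strand for Dusp1, chr1:134079106-134079405 on the minus strand for Btg2, chr15:101266596-101266895 on the plus strand for Nr4a1 and chr7:28379179-28379478 on the minus strand for Zfp36. Capitals mark TGACGTCA, the full cyclic AMP response element, or its core TGACG, in Nr4a1 the core on the other strand (CGTCA), and in Zfp36 the CArG box.
Dusp1: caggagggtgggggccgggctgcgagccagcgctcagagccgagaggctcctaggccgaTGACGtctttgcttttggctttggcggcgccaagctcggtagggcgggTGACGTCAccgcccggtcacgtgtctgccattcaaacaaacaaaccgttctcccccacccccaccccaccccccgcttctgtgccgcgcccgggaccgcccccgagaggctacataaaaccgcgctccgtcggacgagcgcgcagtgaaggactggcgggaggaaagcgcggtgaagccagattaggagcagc
Btg2: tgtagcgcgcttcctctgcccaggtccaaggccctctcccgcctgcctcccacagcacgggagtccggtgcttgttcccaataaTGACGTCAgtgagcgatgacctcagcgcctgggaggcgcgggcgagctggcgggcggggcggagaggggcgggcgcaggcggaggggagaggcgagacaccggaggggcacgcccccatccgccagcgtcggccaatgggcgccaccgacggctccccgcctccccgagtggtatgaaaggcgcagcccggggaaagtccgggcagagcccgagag
Nr4a1: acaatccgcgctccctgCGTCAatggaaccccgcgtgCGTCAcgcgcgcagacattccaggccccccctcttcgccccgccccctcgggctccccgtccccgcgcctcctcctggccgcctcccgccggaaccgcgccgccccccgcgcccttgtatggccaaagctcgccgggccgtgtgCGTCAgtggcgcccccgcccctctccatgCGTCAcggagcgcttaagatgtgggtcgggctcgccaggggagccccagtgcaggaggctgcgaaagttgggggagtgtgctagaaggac
Zfp36: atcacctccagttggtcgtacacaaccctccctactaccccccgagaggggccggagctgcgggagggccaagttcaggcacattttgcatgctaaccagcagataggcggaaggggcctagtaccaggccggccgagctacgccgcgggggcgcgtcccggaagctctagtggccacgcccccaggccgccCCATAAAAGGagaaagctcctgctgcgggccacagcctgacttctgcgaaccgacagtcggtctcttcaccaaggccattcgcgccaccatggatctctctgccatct
The full element began 143 bases before the start site in Dusp1 and 166 bases before it in Btg2, and was present in 1.79% of 32851 windows. Nr4a1 held the core 4 times on the reverse strand, beginning 233, 213, 69 and 40 bases before the start. Zfp36 held none of these, and its CArG box, at 58 bases before the start, is a motif found in 1.63% of windows. The core lies within the full element and was searched on both strands. The full element and the CArG box read the same on both strands, and the TATA box was searched in the printed direction alone. Windows were used for 8 of the 10 genes, and Egr1 and Ier2 are named only. Of 5 alternative Egr2 windows, 4 held a CArG box, and the Nr4a2 window held the core 4 times.

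Set beside all genes, the counts of calls among the 10 read as follows. Between Zbtb46+ and Zbtb46- CDPs over 9 arrays, limma called 0 of the 10, where 14.4% of all genes were called, and 1 (Zfp36) had an unadjusted p under 0.05, as did 29.2% of all genes. With the replicate block within the CDP groups 2 were called, against 25.4% of all genes. Over 7 arrays 5 were called, 1 higher (8.71% of all genes) and 4 lower (13.8%). In pre-CD8 DCs against Zbtb46+ CDPs 1 was called higher over 9 arrays, against 4.76% of all genes, and 3 with the block, against 11.3%. Over 7 arrays 7 were higher, against 12.5%. In pre-CD8 DCs against Zbtb46- CDPs 4 were higher over 9 arrays, against 6.43%, and over 7 arrays 6 were higher (9.4% of all genes) and 1 lower (10.8%). Without Zbtb46+ replicate 1 alone, 3 were called between the CDP groups, where 26.4% of all genes were, and 5 between pre-CD8 DCs and Zbtb46+ CDPs, where 13.4% were. Replicate 1 was above the mean of the other arrays for all 10 genes in Zbtb46+ CDPs and for 9 of 10 in Zbtb46- CDPs. Leaving it out therefore lowers the CDP means of these genes by construction, and the counts without it are not independent of that choice.

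The median difference of the 10 genes was 0.15 for Zbtb46+ over Zbtb46- CDPs, 0.27 for pre-CD8 DCs over Zbtb46+ CDPs and 0.20 for pre-CD8 DCs over Zbtb46- CDPs with 9 arrays, where the medians of all genes were 0.04, -0.03 and 0.01. With 7 arrays the medians of the 10 were 0.01, 0.59 and 0.40, and those of all genes 0.02, -0.03 and -0.01. The change between the sets of arrays follows in part by construction. The replicate 1 arrays left out were above the other arrays of their group by a median of 0.94 in Zbtb46+ CDPs and 0.48 in Zbtb46- CDPs over the 10 genes. The second and the third comparison share the pre-CD8 arrays, and the first shares CDP arrays with each, so the 3 are not independent.

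**Figure D2:**
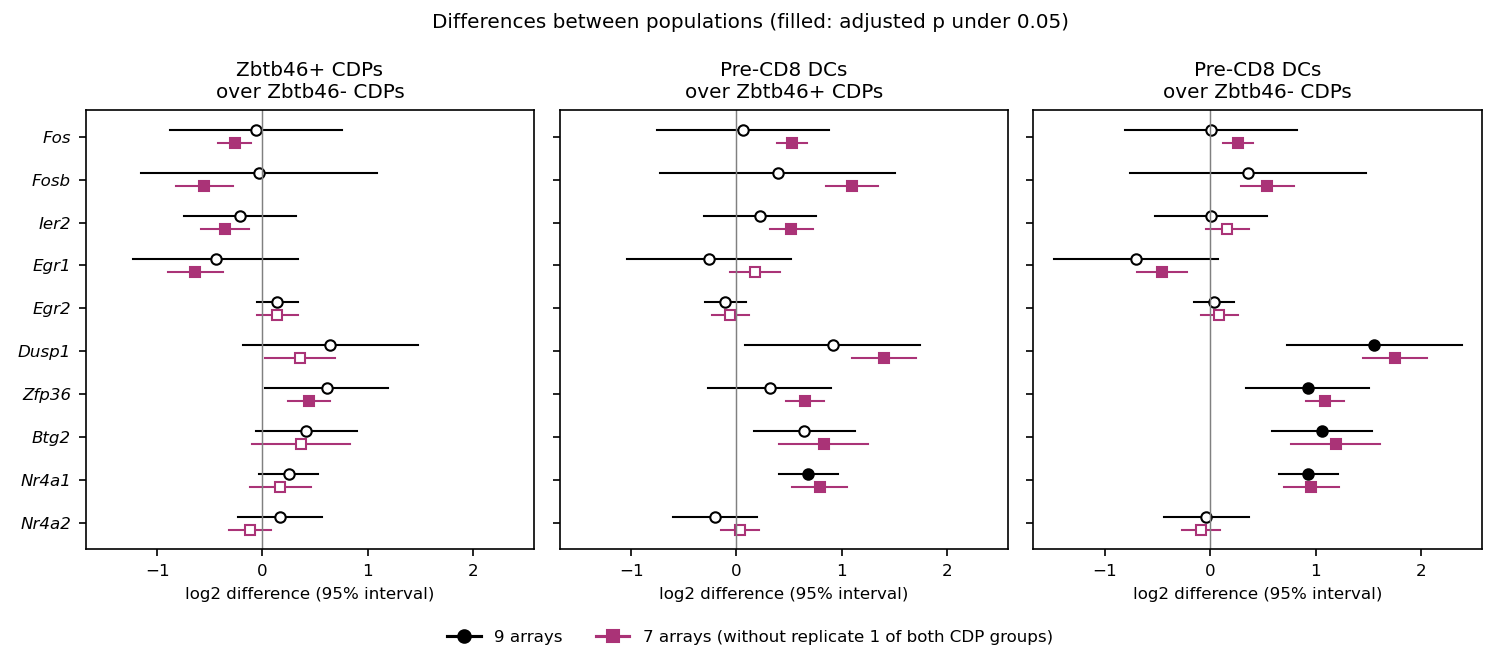
Log2 differences of the 10 genes for 3 comparisons of populations, with 95% intervals, from 9 arrays (black circles) and from 7 arrays without replicate 1 of both CDP groups (purple squares). Filled symbols had an adjusted p under 0.05. In the middle panel 1 gene is filled with 9 arrays and 7 genes are with 7 arrays.

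The excess in replicate 1 was a feature of nearly all members of the CDP groups. In Zbtb46+ CDPs, replicate 1 minus the mean of the other arrays had a median of 0.94 over the 10 genes, from 0.15 for Egr2 to 2.11 for Fosb. It exceeded 0.3 in 9 of 10 genes, where 19.6% of all genes did, and 1 in 5 genes, where 1.03% of all genes did. In Zbtb46- CDPs the median was 0.48, from -0.15 for Nr4a2 to 0.79 for Fos, with 7 of 10 genes above 0.3 against 11.6% of all genes. Of 41 other early response genes, 26 in Zbtb46+ CDPs and 21 in Zbtb46- CDPs exceeded 0.3. Among pre-CD8 DCs the medians of the 3 arrays were 0.08, -0.05 and -0.08. None of the 7 other arrays had more than 1 of the 10 genes above 0.3.

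Heat shock genes, which cells raise under thermal and proteotoxic stress, were split on the same arrays. Of 9 measured, 1 in Zbtb46+ CDPs replicate 1 and 2 in Zbtb46- CDPs replicate 1 were above 0.3, while 4 and 2 were below -0.3, and the medians were -0.07 and 0.03. Hspa1a, the inducible Hsp70, was higher on both, by 0.85 in Zbtb46+ and 0.50 in Zbtb46- CDPs, and Dnajb1, a cochaperone, by 0.22 and 0.51. Hspd1, the mitochondrial Hsp60, differed by -1.63 and -0.40, and its partner Hspe1 by -1.44 and -0.33. Whether neutrophil RNA, sex or handling had a part in the excess of replicate 1 was not tested.

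**Figure D3:**
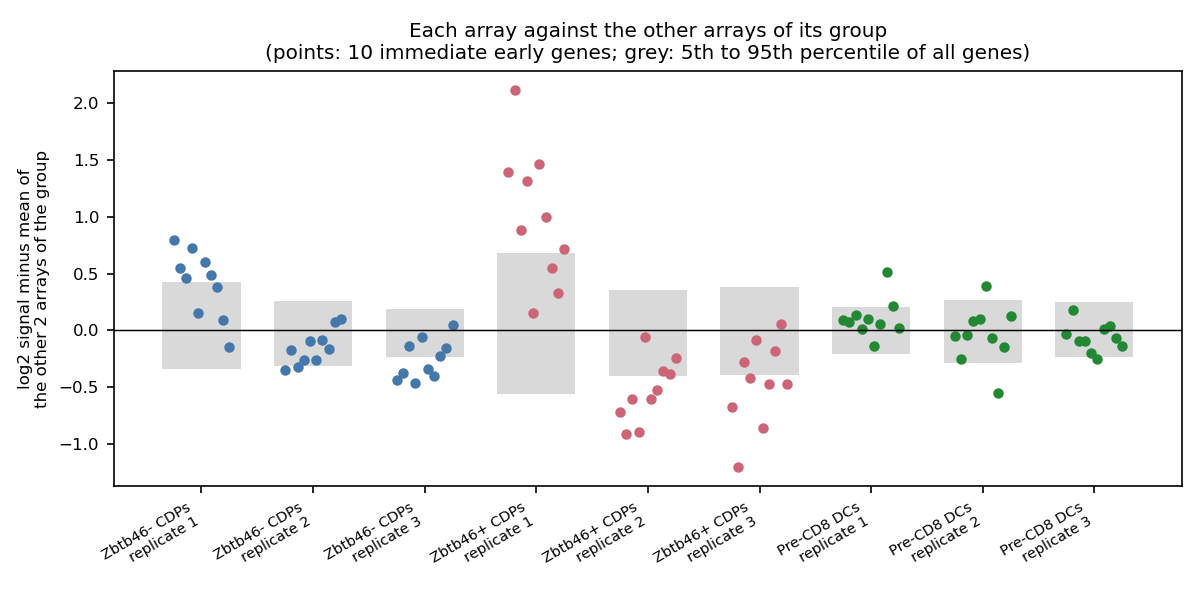
Each array's log2 signal minus the mean of the other arrays of its group, for the 10 genes (points), with the 5th to 95th percentile of all genes in grey. Points of Zbtb46+ CDPs replicate 1 reach 2.11 and 7 of 10 lie above the grey band, while those of the pre-CD8 DC arrays run from -0.55 to 0.51.

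**Figure D4:**
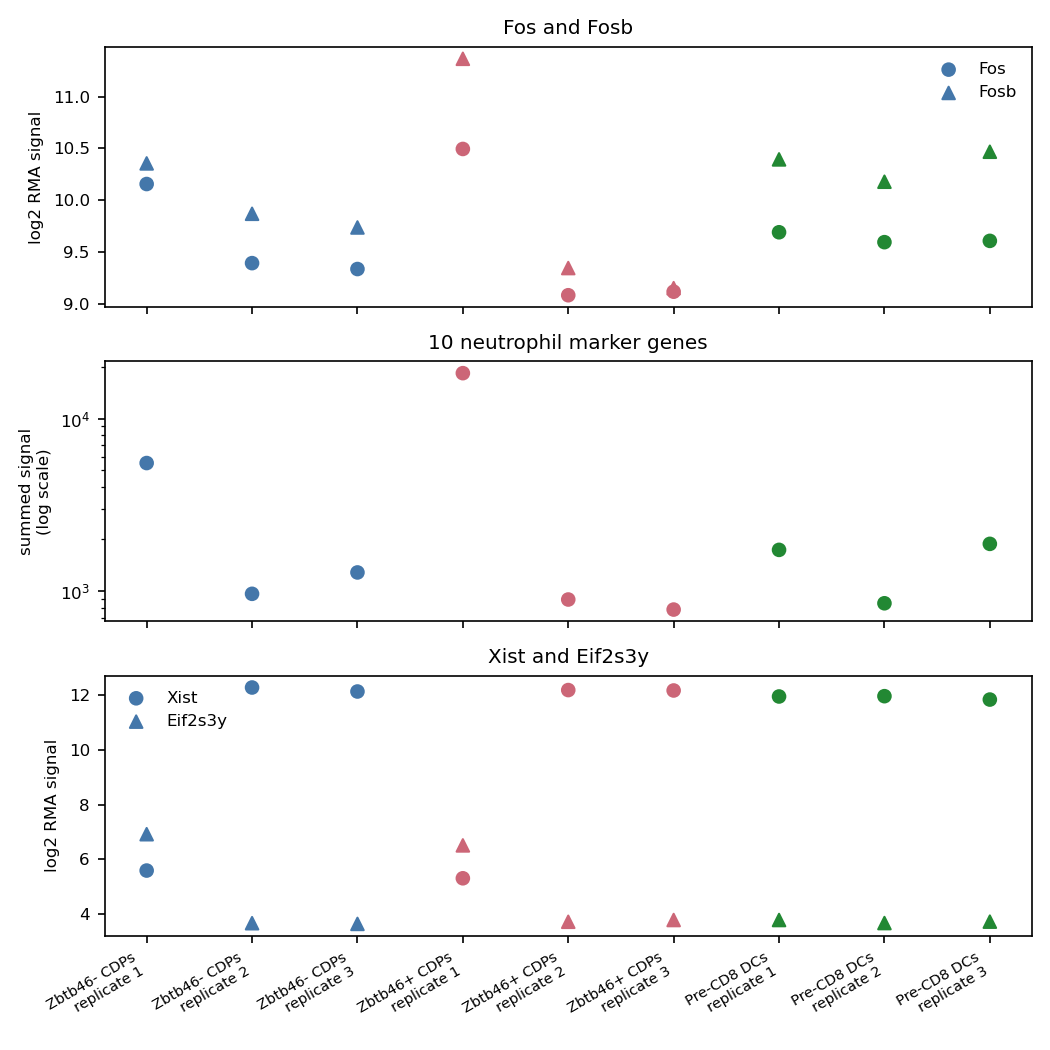
Log2 RMA signal of Fos and Fosb (top), summed signal of 10 neutrophil genes on a log scale (middle) and log2 RMA signal of Xist and Eif2s3y (bottom) on each of 9 arrays. Replicate 1 of both CDP groups is low in Xist, high in Eif2s3y and high in the neutrophil sum, with Fosb at 10.36 in Zbtb46- CDPs and 11.36 in Zbtb46+ CDPs.

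The wider early response did not move as one group. Between Zbtb46+ and Zbtb46- CDPs, 6 of the 41 other early response genes rose and 5 fell over 9 arrays, where 3.85% and 10.6% of all genes did (9 and 8 with the replicate block, against 9.58% and 15.8%). Over 7 arrays 6 rose and 9 fell, against 8.71% and 13.8%. Cd69, a lectin that appears early on activated lymphocytes, had 7.41, 7.10 and 7.13 in Zbtb46+ CDPs, against 10.29, 10.22 and 10.13 in Zbtb46- CDPs (difference -3.00, SE 0.10, limma adjusted p = 2.1e-06). Rhob, a small GTPase, fell by 2.01 (adjusted p = 0.00302), Dusp6, the ERK phosphatase, by 1.63 (0.00644) and Myc, the growth regulator, by 1.60 (0.000388). Sgk1, a kinase induced by serum and steroids, rose by 1.58 (adjusted p = 1.06e-05), and the factor Klf4 by 1.35 (0.000259). Zfp36l1, the paralogue of Zfp36, rose by 1.06 (0.0145) and the factor Klf6 by 0.92 (0.0496), a call lost without Zbtb46- replicate 2 or 3, Zbtb46+ replicate 2 or any 1 of the pre-CD8 arrays (0.0611 to 0.147). These changes were present with 7 arrays too, at -3.06 for Cd69, -2.31 for Rhob, -1.82 for Myc, -1.56 for Dusp6 and 1.55 for Sgk1. Dusp2, another phosphatase of MAP kinases, was lower by 1.04 in the 7-array fit (log2 difference -1.04, adjusted p = 0.00222). With the replicate block over 9 arrays it was called lower too (-0.83, adjusted p = 0.00834, against 0.12 without the block).

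Between pre-CD8 DCs and Zbtb46+ CDPs, 6 of the 41 rose and 1 fell over 9 arrays, against 4.76% and 1.86% of all genes (10 and 3 with the block, against 7.43% and 3.84%). Over 7 arrays 16 rose and 2 fell, against 12.5% and 7.87%. Sgk1 rose by 1.37 (SE 0.08, limma adjusted p = 2.31e-05), Ier5, a regulator of heat shock factor, by 1.21 (0.00271), Zfp36l1 by 1.10 (0.0223) and Myc by 0.78 (0.0243), and Cd69 fell by 1.44 (6.61e-05). The Zfp36l1 and Myc calls were lost without Zbtb46+ replicate 2 or 3 or any 1 of the pre-CD8 arrays (adjusted p of 0.0677 to 0.0934). Junb, a partner of Fos in AP-1, was higher over 7 arrays by 1.21 (adjusted p = 0.00178). Over 9 arrays it was called higher with the replicate block (0.92, adjusted p = 0.000386, against 0.109 without the block). Fosl2, a Fos relative, was lower over 7 arrays (-0.35, adjusted p = 0.0394), a call that 1 of 7 fits with an array left out kept, the one without pre-CD8 replicate 3 (0.0567 to 0.17 in the others). Jun, the main partner of Fos, was over 7 arrays lower in Zbtb46+ than in Zbtb46- CDPs (-0.47, adjusted p = 0.00295) and higher in pre-CD8 DCs than in Zbtb46+ CDPs (0.43, adjusted p = 0.00362), and differed by -0.03 between pre-CD8 DCs and Zbtb46- CDPs (adjusted p = 0.822). Its 3 arrays had 10.70, 10.63 and 10.73 in pre-CD8 DCs, against 11.47, 10.27 and 10.23 in Zbtb46+ CDPs, with replicate 1 again the highest.

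Over the whole span from Zbtb46- CDPs to pre-CD8 DCs, 8 of the 41 rose and 7 fell over 9 arrays, against 6.43% and 9.23% of all genes (11 and 9 with the block, against 8.34% and 12.3%). Over 7 arrays 14 rose and 9 fell, against 9.4% and 10.8%. In pre-CD8 DCs Sgk1 had 9.34, 9.17 and 9.24, against 6.36, 6.22 and 6.34 in Zbtb46- CDPs, a rise of 2.94. Cd69 had 5.83, 5.86 and 5.65 in pre-CD8 DCs, a fall by 4.44 (adjusted p = 3.72e-08). Zfp36l1 rose by 2.16, Ier5 by 1.96 and Klf6 by 1.33, while Rhob fell by 2.30, Dusp6 by 2.10 and Gadd45b, a growth arrest gene, by 1.01. Phosphatases of MAP kinases went both ways, with Dusp1 higher and Dusp6 lower in pre-CD8 DCs. The median difference of the 41 was 0.02 over 9 arrays, against 0.01 for all genes.

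**Figure D5:**
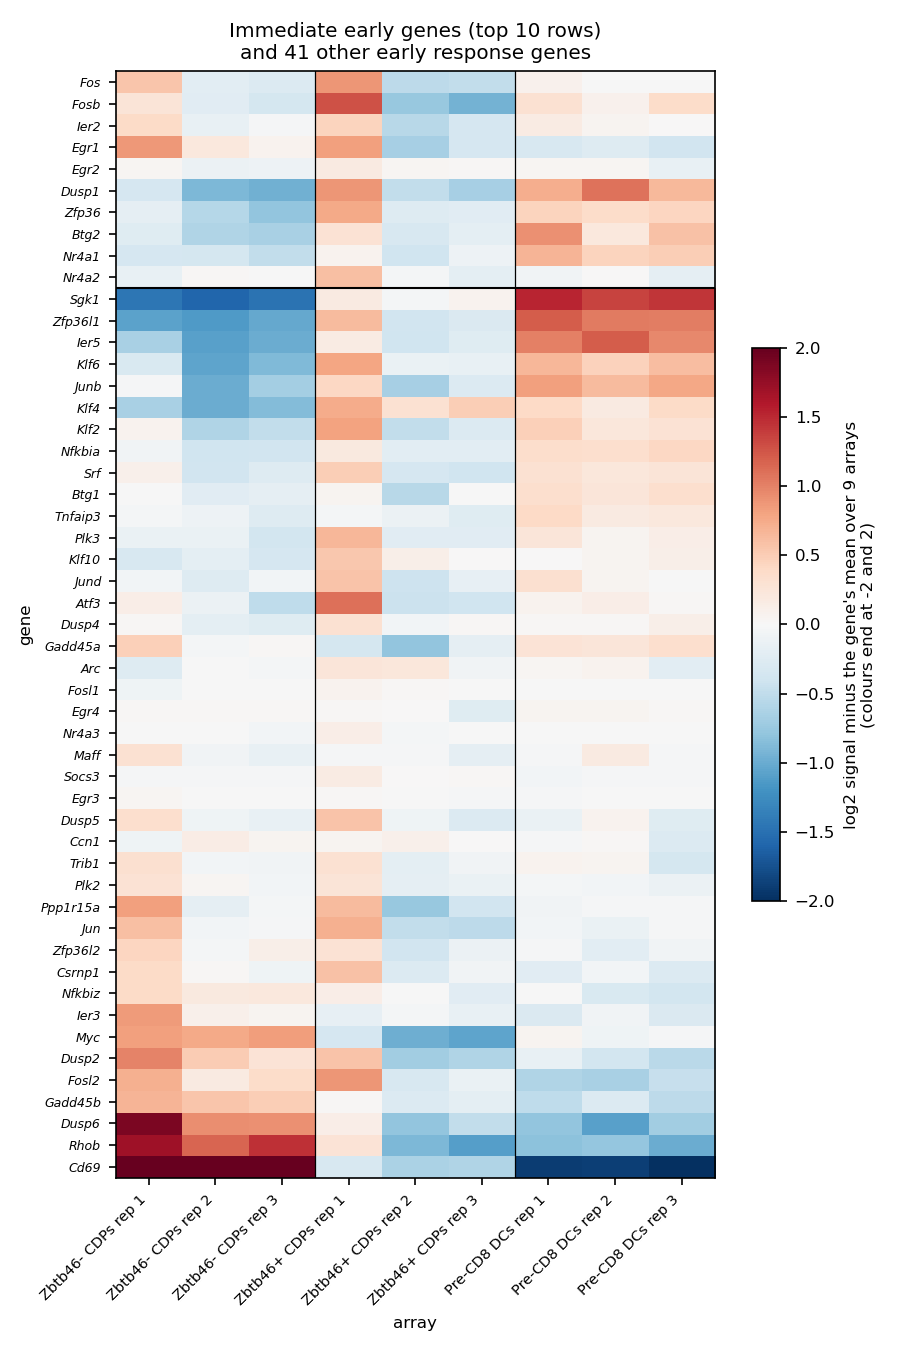
Log2 signal of the 10 immediate early genes (top rows) and of 41 other early response genes on each of 9 arrays, each gene less its own mean over the arrays, with colours ending at -2 and 2. Sgk1 runs blue to red from Zbtb46- CDPs to pre-CD8 DCs and Cd69 red to blue, and replicate 1 of Zbtb46+ CDPs is red in most of the top 10 rows.

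Of 18 regulators measured that act upstream of these genes, 2 rose and 2 fell between Zbtb46+ and Zbtb46- CDPs over 9 arrays, against 3.85% and 10.6% of all genes. Between pre-CD8 DCs and Zbtb46+ CDPs 1 rose and 1 fell, against 4.76% and 1.86%. Over 7 arrays 2 rose and 3 fell in the first comparison and 4 rose and 1 fell in the second, against 8.71%, 13.8%, 12.5% and 7.87%. Elk3, an ETS factor that joins SRF on CArG boxes and can act as a repressor, had 8.89, 8.63 and 8.77 in Zbtb46+ CDPs, against 10.33, 10.04 and 10.01 in Zbtb46- CDPs (-1.36, SE 0.10, limma adjusted p = 8.6e-05). Mrtfa, a coactivator of SRF, rose by 0.83 in Zbtb46+ CDPs (adjusted p = 0.0294), and the kinases Mapk8 and Rps6ka3 differed by -0.47 and 0.44 (0.00309 and 0.0219). The Mrtfa and Rps6ka3 calls were lost without any 1 of the Zbtb46- arrays, and that of Mrtfa also without pre-CD8 replicate 1 or 3 (0.051 to 0.1). Map3k8, a kinase that feeds the ERK pathway, was higher in pre-CD8 DCs than in Zbtb46+ CDPs (0.72, SE 0.14, adjusted p = 0.0148), and Rps6ka5, which phosphorylates CREB and histone H3 at these genes, was lower (-0.53, adjusted p = 0.0354). The Map3k8 call was lost without Zbtb46+ replicate 2 or 3 or pre-CD8 replicate 2 or 3 (0.0531 to 0.062). That of Rps6ka5 was lost without Zbtb46- replicate 2 or 3, Zbtb46+ replicate 3 or any 1 of the pre-CD8 arrays (0.0508 to 0.133). Rps6ka3 was not called between the CDP groups over 7 arrays (adjusted p = 0.0601). With the replicate block Map3k8 was called higher between them too (0.36, adjusted p = 0.0186, against 0.117 without it). Over the whole span 3 rose and 2 fell over 9 arrays, against 6.43% and 9.23% of all genes, among them Map3k8 by 1.08, Mrtfa by 1.06 and Elk3 by -1.60. The block added a lower call of Rps6ka5 there (-0.37, adjusted p = 0.00849, against 0.0842 without it). Over 7 arrays 4 rose and 2 fell, against 9.4% and 10.8%.

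Of 10 transcripts measured that Zfp36 is known to destabilise through AU-rich elements, 8 had means below the table's median in all 3 groups. Over 9 arrays limma called 0 between Zbtb46+ and Zbtb46- CDPs, against 14.4% of all genes. There 2 had an unadjusted p under 0.05, against 29.2% of all genes. Between pre-CD8 DCs and Zbtb46+ CDPs it called 0, against 6.62%, and 0 were under 0.05 unadjusted, against 19%. Over 7 arrays it called 0 and 0 in these comparisons, against 22.5% and 20.4% of all genes. Unadjusted, 3 and 0 were under 0.05, against 35.5% and 35.2%. Over the whole span 1 of the 10, the chemokine Ccl3, was called lower in pre-CD8 DCs with either set of arrays. Its difference over 9 arrays was -1.67 (limma adjusted p = 0.0425). Of all genes, 9.23% were called lower over 9 arrays and 10.8% over 7 arrays. The 9-array call of Ccl3 was kept in 2 of 9 fits that left out 1 array (0.0605 to 0.154 in the others). The 2 fits that kept it were those without Zbtb46+ replicate 1 or 2. Its 7-array call was lost without pre-CD8 replicate 1 or 3. It was also lost without Zbtb46- replicate 2 or 3, where 1 array of that group is left. With the replicate block within the CDP groups, Ptgs2, the inducible cyclooxygenase, was higher in Zbtb46+ than in Zbtb46- CDPs (0.37, adjusted p = 0.0402). Ccl3 was lower there (-1.08, adjusted p = 0.0288). Of all genes, 9.58% were called higher and 15.8% lower in that comparison with the block. Ptgs2 was lower in pre-CD8 DCs than in Zbtb46+ CDPs (-0.41, 0.0464), as were 3.84% of all genes. Of 9 heat shock genes, the chaperones Hspd1 and Hsph1 were lower in Zbtb46+ than in Zbtb46- CDPs over 9 arrays (-1.43 and -1.48, limma adjusted p = 0.0389 and 3.12e-05), 5 were with the block and 4 over 7 arrays, against 10.6%, 15.8% and 13.8% of all genes. The Hspd1 call was lost in 7 of 9 fits that left out 1 array (0.0536 to 0.131), all but those without Zbtb46+ replicate 1 or 3. In pre-CD8 DCs against Zbtb46+ CDPs 0 of the 9 were called over 9 arrays, where 6.62% of all genes were. With the block 1 was higher, Hspa1a (0.87, adjusted p = 0.00363), against 7.43% of all genes. Over 7 arrays 1 was higher there, Hspa1a (1.15), and 1 lower, against 12.5% and 7.87%. In pre-CD8 DCs against Zbtb46- CDPs 0 were higher and 1 lower over 9 arrays, against 6.43% and 9.23%. Over 7 arrays 1 was higher, Hspa1a again (0.50), and 3 lower, against 9.4% and 10.8%. That call of Hspa1a was lost without Zbtb46- replicate 2, where 1 array of the group is left. Between the CDP groups Hspa1a was among those lower over 7 arrays (-0.65), a call lost without Zbtb46- replicate 3, where again 1 array of the group is left. These genes were named for their calls, after their values were seen.

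Genes with the profile most like the mean of the 10 were found by the root mean square difference of centred log2 values over 9 arrays. Predicted and clone-named genes were left out. The 6 closest of the rest were Vps26b at 0.07, Srf at 0.07, Dop1b at 0.08, Tfe3 at 0.08, Tsc22d2 at 0.08 and Map3k11 at 0.09. The 10 genes themselves lay between 0.19 (Ier2) and 0.50 (Dusp1) from their mean. Srf, whose product binds the CArG box, had 9.29, 8.81 and 8.93 in Zbtb46- CDPs, 9.68, 8.86 and 8.79 in Zbtb46+ CDPs, and 9.50, 9.42 and 9.45 in pre-CD8 DCs. Over 7 arrays it was 0.64 higher in pre-CD8 DCs than in Zbtb46+ CDPs (SE 0.07, limma adjusted p = 0.00113), and over 9 arrays 0.35 (adjusted p = 0.444). These genes were found by searching 19938 profiles that share the same 9 arrays, so the likeness is a description.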

How the data were processed

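RNA of 9 sorted samples was turned into biotinylated cDNA with an Affymetrix kit for inputs of picograms to a few nanograms, per the labels' protocols, and measured on arrays. The deposited values are a signal intensity per probe set, summarised with RMA in Affymetrix Expression Console per the submitters' processing notes. Versions and settings are not given in the sources used here. The values ran from 7.45 to 20455.6, a linear scale, so log2 was taken and no further scaling applied. Array medians were 110.2 to 118.0, 0 pairs of arrays were identical, and precision is limited by how many arrays there are.

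Of 28853 probe sets, 21789 named 1 gene, 1621 several and 5443 none in the probe table. Those with 1 symbol were kept, the brightest per gene where 999 genes had several, giving 19938 genes with no filter on dim ones. limma 3.58.1 (lmFit, eBayes) in R 4.3.3 fitted 3 group means to 9 arrays and to 7 arrays, two-sided. P-values were adjusted by Benjamini-Hochberg over all genes and called under 0.05. The fits were tested on simulated data with known changes and noise independent between arrays. That test did not cover the shared deviations of the CDP arrays or the shift of replicate 1.

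Same-numbered arrays of the CDP groups deviated together (0.51, 0.42 and 0.36), and the labels state no pairing. The shift of replicate 1 in both groups by itself gives such values for replicates 2 and 3, so they do not show a pairing. Zbtb46+ replicate 2 and Zbtb46- replicate 3 did as well (0.38), so replicates 2 and 3 are not told apart by number. Those of pre-CD8 DCs did so little or not (-0.03 to 0.17), so the block was applied within the CDP groups, and over all groups as an alternative. Other alternatives were a covariate for replicate 1, a filter, the mean of probe sets, quantile normalization, an intensity trend, array weights, fits of 2 groups and each array left out. Those applied to the 7-array fit were chosen after seeing the data.

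The 10 genes and the lists of other early response genes, upstream regulators, heat shock genes, AU-rich transcripts and cell markers were chosen with earlier results of these data known. Named were the 10 genes, up to 4 called genes of the early response list with the largest rise and fall and up to 4 called regulators per comparison, and the 6 genes nearest in profile. Jun, Dusp2, the heat shock genes, the AU-rich transcripts and the monocyte genes were named outside these rules, after their values were seen. So were the markers of the common DC progenitor. Xist, Eif2s3y, Ddx3y, Ngp and S100a8 were named as describing the arrays that stand apart. Promoter windows are RefSeq's for GRCm38.p6. Tables were made with pandas 2.3.3 and numpy 2.4.6 under Python 3.11.15, and figures with matplotlib 3.10.9.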

Additional observations from a re-analysis of the deposited data

How the results depend on the processing

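With 3 arrays per group and 2 in the CDP groups of the 7-array fit, small differences have wide intervals. No detection call was used, so signals low on the scale were not told apart from background. The cause of the shifts below was not tested. Over 9 arrays the number of the 10 genes called between Zbtb46+ and Zbtb46- CDPs was 0, against 1 with a replicate block over all groups, 2 with the replicate block within the CDP groups, 5 with 7 arrays, 3 with a covariate for replicate 1, 1 with quantile normalization, 1 with array weights, and 0 to 3 when 1 array was left out. Between pre-CD8 DCs and Zbtb46+ CDPs it was 1, against 2 with the replicate block over all groups, 3 within the CDP groups, 7 with 7 arrays, 6 with the covariate, 6 with array weights, and 0 to 5 with 1 array left out. Between pre-CD8 DCs and Zbtb46- CDPs it was 4, against 7 with 7 arrays and 2 to 5 with 1 array left out. Over 7 arrays the counts of 5, 7 and 7 ran from 1 to 6, 5 to 7 and 4 to 7 with 1 array left out, and the last was 4 with the replicate block over all groups.

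Of all genes, 2873 were called between Zbtb46+ and Zbtb46- CDPs over 9 arrays, against 5071 with the replicate block within the CDP groups, 4495 with 7 arrays, 5359 with the covariate, 6430 with array weights, 1858 in a fit of those groups alone and 1793 to 5268 with 1 array left out. Between pre-CD8 DCs and Zbtb46+ CDPs, 1319 were called, against 2247, 4066, 3130, 3062, 850 and 662 to 2672 in the same order. Between pre-CD8 DCs and Zbtb46- CDPs, 3123 were called, against 6955 with array weights and 2250 to 4300 with 1 array left out. Over 7 arrays the counts of 4495, 4066 and 4021 ran from 1761 to 4766, 2114 to 3300 and 2452 to 3951 with 1 array left out, and the second was 2539 with the replicate block over all groups. Quantile normalization changed the split of higher and lower calls to 1118 and 1617 from 768 and 2105 between the CDP groups, and to 788 and 590 from 949 and 370 between pre-CD8 DCs and Zbtb46+ CDPs.

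Of 1020 differences of the 10 genes recomputed, 33 changed sign, 0 of them called in either setting, with sizes up to 0.37. For Zbtb46+ over Zbtb46- CDPs these were Fos (0.080 with quantile normalization, -0.53 to 0.20 with 1 array left out), Fosb (0.14, and -0.74 to 0.37) and Nr4a2 (-0.12 with 7 arrays, -0.050 with array weights, -0.072 to 0.32). For pre-CD8 DCs over Zbtb46+ CDPs they were Fos (-0.049 with quantile normalization, -0.17 to 0.53), Fosb (-0.0083 to 1.10), Egr1 (0.18 with 7 arrays, 0.081 with the covariate, 0.071 with array weights, -0.56 to 0.18) and Nr4a2 (0.035 with 7 arrays, -0.36 to 0.035). For pre-CD8 DCs over Zbtb46- CDPs they were Fos (-0.14 to 0.27), Ier2 (-0.10 to 0.16) and Nr4a2 (0.057 with the covariate, -0.086 to 0.0092). Over 7 arrays they were pre-CD8 over Zbtb46+ differences of Egr2 (0.032 with quantile normalization, -0.089 to 0.0089) and Nr4a2 (-0.043 to 0.11). The replicate block within the CDP groups changed no call of the 10 genes beyond those given beside the results, and none over 7 arrays. With the block over all groups, Btg2 was called in the comparisons of 9 arrays between Zbtb46+ and Zbtb46- CDPs and between pre-CD8 DCs and Zbtb46+ CDPs (adjusted p of 0.0246 and 0.00874). Over 7 arrays it ended the calls of Fos, Fosb and Egr1 between pre-CD8 DCs and Zbtb46- CDPs (0.0904, 0.0512 and 0.0674) and of Fos between the CDP groups (0.0593). Fits of 2 groups over 7 arrays ended the calls of Fos and Ier2 between the CDP groups (0.0586 and 0.0905) and of Btg2 between pre-CD8 DCs and Zbtb46+ CDPs (0.0516), and called Btg2 between the CDP groups (0.0422). Where 1 array is left of a group, it is assumed to vary like the other groups.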
